A study of Mus musculus with 12 samples.

Results

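The strands described here are the 3p arms of the let-7 hairpins, by custom named the passenger strands of the family. They were chosen as the 9 names mmu-let-7a-1-3p, mmu-let-7b-3p, mmu-let-7c-2-3p, mmu-let-7d-3p, mmu-let-7e-3p, mmu-let-7f-1-3p, mmu-let-7f-2-3p, mmu-let-7g-3p and mmu-let-7i-3p, out of 1915 mouse microRNA names in the count table. The counts of let-7a-1-3p equalled those of let-7c-2-3p in 12 of 12 libraries, and this strand is counted once, which leaves 8 strands. The libraries hold small RNA from extracellular vesicles of plasma, taken from male C57BL/6J mice 8 days after surgery. One group (BDL, 6 libraries) had the bile duct ligated, which stops bile flow, and the other (sham, 6 libraries) had the control operation. A precipitation reagent collected the vesicles, which can come from any cell that releases them into blood. A changed number of vesicles from one cell type cannot be told apart from a changed amount of RNA per vesicle. The tissue label reads liver and the series title names mRNA, while small RNA of vesicles is what the protocol and the label for site describe. The design text gives 6 animals a group, but no label ties a library to an animal, and the codes of the samples begin with digits that recur in a pair of libraries of 1 group.

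let-7 is one of the most conserved microRNA families, and its members hold back cell growth genes such as those of the Ras and Lin28 families and favour differentiation. Each hairpin is cut into a duplex of a 5p and a 3p strand. For most let-7 hairpins the 5p strand is kept by Argonaute as the guide and the 3p strand is mostly discarded, which is why it is called the passenger. Below, guide and passenger are used as names of the 5p and the 3p arm. For let-7d these names go against the reads, since its 3p strand had more reads than its 5p strand in every library. Strand choice is known to depend on how firmly each end of the duplex is paired and on the first base of each strand.

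The strands were compared through their mature sequences, since these decide which names can share reads. All 9 names matched a RefSeq mature sequence (build GRCm38.p6). The sequences are written 5′ to 3′ with the seed, bases 2 to 8, in capitals, and are grouped by seed. The first group shares 1 seed, which among other mouse mature sequences is found only in miR-98-3p, a further let-7 relative.
let-7a-1-3p, same as let-7c-2-3p: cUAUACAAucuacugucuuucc
let-7b-3p: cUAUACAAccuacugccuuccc
let-7f-1-3p: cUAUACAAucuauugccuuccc
let-7f-2-3p: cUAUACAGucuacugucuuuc
let-7d-3p: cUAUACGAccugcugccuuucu
let-7e-3p: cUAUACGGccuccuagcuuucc
let-7i-3p: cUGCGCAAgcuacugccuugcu
let-7g-3p: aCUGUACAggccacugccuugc

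let-7c-2-3p differed from let-7a-1-3p at 0 of 22 bases, so the deposited counts cannot say which hairpin the reads came from. let-7f-2-3p differed from let-7a-1-3p at 1 of 21 bases, and let-7b-3p from let-7f-1-3p at 2 of 22 bases. Reads of these strands with a sequencing error or a trimmed end could be credited to a neighbour, and whether they were is not given in the sources used here. let-7d-3p was not as close to any other, with 4 differences from let-7b-3p as its nearest. let-7e-3p was further still, with at least 5 differences from each of the others. let-7g-3p is listed with its first base 1 position earlier than in the others. Moved by 1 base, it differed from let-7i-3p at 4 of 21 bases. Of the 9 names, 8 start with C and let-7g-3p starts with A.

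The 3 hairpins of chromosome 13 lie in exons of the long non-coding RNA 6720427I07Rik, on the minus strand. They are Mirlet7d (48536012 to 48536114), Mirlet7f-1 (48537829 to 48537917) and Mirlet7a-1 (48538179 to 48538272). Mirlet7c-2 (85706603 to 85706697) and Mirlet7b (85707319 to 85707403) are 621 bases apart on chromosome 15, in exons of the non-coding Lncppara. Mirlet7e (chromosome 17, 17830352 to 17830444) lies in an intron of Spaca6, a sperm protein gene, 367 bases from Mir125a. Mirlet7f-2 (chromosome X, 151912346 to 151912428) lies in an intron of Huwe1, a ubiquitin ligase gene, 785 bases from Mir98. Mirlet7g (chromosome 9, 106178840 to 106178927) is in an intron of Wdr82, which encodes a subunit of histone methyltransferase complexes. Mirlet7i (chromosome 10, 122985640 to 122985724) is in an exon of the pseudogene D630033A02Rik.

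Library totals ran from 121003 to 3506914 counts in BDL, with a median of 1150963, and from 659302 to 2684636 in sham, with a median of 1682977. BDL 2, 4 and 6 and sham 6 held fewer than 1000000 counts. Levels are given as CPM, counts per 1000000 of the scaled library size. The limit behind a value of 0, taken as 3 counts, was 23.98 CPM in BDL 4, which had the fewest counts, and 0.624 CPM in BDL 1, which had the most. Markers of several cell types moved with the operation. The hepatocyte list (miR-122, miR-192 and miR-194) summed to 74747 to 327680 CPM in BDL against 4013 to 25209 CPM in sham, and 2 of its 3 tested names rose. Most of that sum was miR-122-5p, with 60142 to 315859 CPM in BDL and 2694 to 22858 CPM in sham. The erythroid list (miR-451a, miR-144, miR-486 and miR-16) summed to 247336 to 755687 CPM in BDL against 709695 to 1102480 CPM in sham, and 4 of its 7 tested names fell. miR-486a and miR-486b enter that sum and that count as separate names, and whether they share reads was not checked. Scaled library sizes can be below the totals (factor 0.74 in sham 4), so a sum can exceed 1000000 CPM. The leukocyte list summed to 1008 to 4002 CPM in BDL and 3879 to 7408 CPM in sham, and the platelet and endothelial list to 631.4 to 2718 CPM in BDL and 3195 to 8903 CPM in sham, with 3 of 5 and 2 of 3 tested names lower. Of all 341 names tested, 84 were called higher and 62 lower. No list was at 0 in any library, and the part of these shifts in the let-7 results was not tested.

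A single strand made up almost all of the let-7 3p reads. In BDL let-7d-3p was 96.6 ± 1.29% of the 3p counts, against 96.8 ± 1.13% in sham (mean ± SD, n = 6 each). The other 7 strands together reached 85.0 ± 25.8 CPM in BDL and 75.1 ± 22.3 CPM in sham (mean ± SD, n = 6 each). The 8 strands took 0.282 ± 0.0975% of all counts in BDL, where BDL 4 had 0.426%, and 0.239 ± 0.0327% in sham (mean ± SD, n = 6 each).

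let-7d-3p had a lowest, median and highest level of 1546, 2476 and 4052 CPM in BDL, against 1992, 2371 and 2813 CPM in sham. The highest and the lowest of the 12 libraries were both BDL libraries, the shallow BDL 4 and BDL 2, and the groups overlapped. Its mean was 2612 ± 815.1 CPM in BDL and 2367 ± 304.8 CPM in sham (mean ± SD, n = 6 each). The log2 fold change, BDL over sham, was 0.14 ± 0.23 (SE; edgeR quasi-likelihood test, adjusted p = 0.666). The sign turned without BDL 4 (-0.09) and without sham 3 (-0.03). In libraries of at least 1000000 counts, 3 BDL and 5 sham, it was 0.15 ± 0.19 (edgeR adjusted p = 0.561).

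By mean level over the 12 libraries let-7d-3p ranked 29 of 341 tested names and came next after 2 guides among all let-7 and miR-98 strands. Only the guides let-7i-5p (6552 CPM) and let-7b-5p (2901 CPM) were above its 2489 CPM, while its own partner let-7d-5p had 376.2 CPM. The guide let-7b-5p had 2120, 2608 and 2821 CPM as its lowest, median and highest in BDL and 2860, 3135 and 4181 CPM in sham. The levels of let-7d-3p and let-7b-5p therefore overlapped in BDL and did not in sham.

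**Figure D1:**
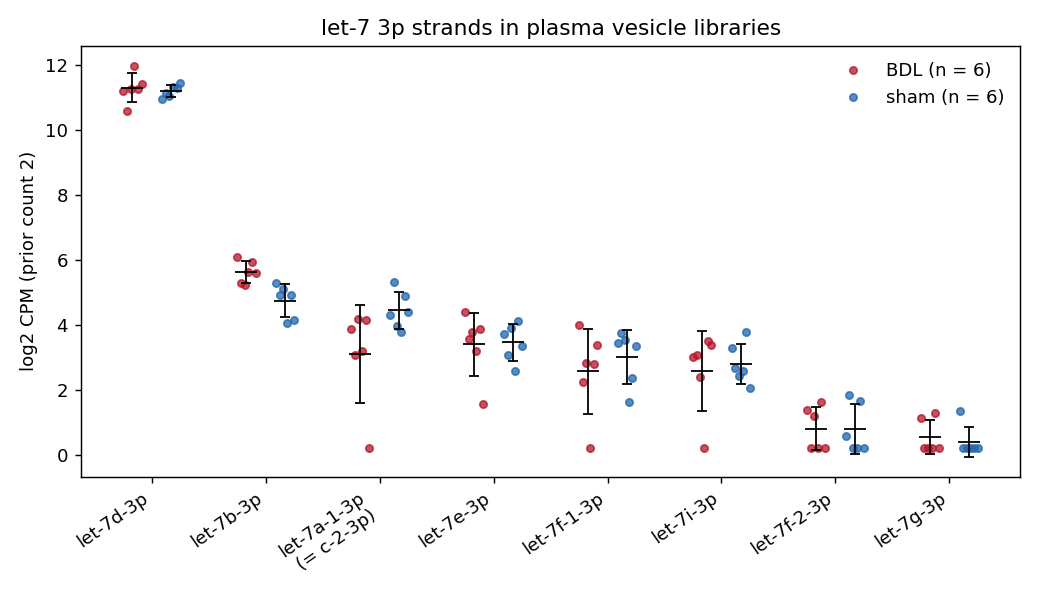
Level of the 8 let-7 3p strands (log2 CPM with a prior count of 2) in each of the 6 BDL and 6 sham libraries, with black bars for mean and SD. let-7d-3p stands above the others in each library. let-7b-3p is next by mean in both groups, though let-7a-1-3p is above it in sham 2 and sham 6. let-7f-2-3p and let-7g-3p are at or near a count of 0 in most libraries.

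The other strands were at low levels. let-7b-3p was next in both groups, and its lowest BDL library (36.3 CPM) was above the highest of let-7e-3p, the next in BDL (20.0 CPM). In sham let-7b-3p overlapped let-7a-1-3p, and was above it in 4 of 6 libraries. From there down, neighbours in the order overlapped in BDL. In sham the order after let-7a-1-3p was let-7e-3p, let-7f-1-3p and let-7i-3p, with means of 10.6, 7.91 and 6.43 CPM that overlapped in their ranges. The lowest sham library of let-7i-3p (3.05 CPM) was above the highest of let-7f-2-3p (2.44 CPM), the next in the order.

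let-7b-3p was the 1 strand past the threshold, and it was higher in BDL. Its lowest, median and highest levels were 36.3, 47.8 and 67.6 CPM in BDL, against 15.4, 29.3 and 37.8 CPM in sham. BDL 2 and BDL 3 were just below the highest sham library, sham 1, and the other 4 BDL libraries were above all sham libraries. The mean was 49.5 ± 12.3 CPM in BDL and 27.0 ± 9.03 CPM in sham (mean ± SD, n = 6 each). This is a log2 fold change of 0.87 ± 0.31, or 1.82-fold (SE; edgeR quasi-likelihood test, adjusted p = 0.0332). Of all 341 names tested, 42.8% were called in either direction and 24.6% were called higher. The 1 of 5 tested strands called, a rise, is near the share called higher and below the share called in either direction. With 5 strands such a distance has little meaning.

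The call of let-7b-3p was close to the threshold. With DESeq2 size factors, which shift the median fold change of all names by -0.14, it had 0.73 (edgeR adjusted p = 0.0675), and with names of identical counts entered once 0.77 (0.0667). Leaving out 1 library at a time gave 0.66 to 0.96, with a positive sign in all 12 fits. The call was kept without BDL 4, BDL 6 or sham 1 and lost without each of the other 9 libraries. Without BDL 1, BDL 5, sham 3 or sham 6 the values were 0.67, 0.73, 0.74 and 0.66 (edgeR adjusted p = 0.103, 0.0985, 0.117 and 0.106). In libraries of at least 1000000 counts it was 0.94 ± 0.31 (adjusted p = 0.0283).

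let-7a-1-3p, identical to let-7c-2-3p, had a lower mean in BDL but did not pass the threshold. It had 0, 10.8 and 16.8 CPM as its lowest, median and highest in BDL, against 12.5, 19.3 and 39.0 CPM in sham. The groups overlapped, and BDL 6 held no read, for which the limit is 5.51 CPM. The log2 fold change was -0.95 ± 0.48 (SE; edgeR adjusted p = 0.122). It was -0.38 ± 0.40 in the 6 libraries with code suffix 24 (edgeR adjusted p = 0.5) and -0.51 ± 0.40 in libraries of at least 1000000 counts (adjusted p = 0.319).

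let-7e-3p and let-7f-1-3p did not pass the threshold. let-7e-3p had 1.84, 11.8 and 20.0 CPM as its lowest, median and highest in BDL and 4.8, 10.6 and 16.1 CPM in sham, with a log2 fold change of 0.20 ± 0.42 (SE; edgeR adjusted p = 0.737). let-7f-1-3p had 0, 5.86 and 14.8 CPM in BDL and 1.92, 9.42 and 12.2 CPM in sham, with -0.03 ± 0.49 (edgeR adjusted p = 0.972). The sham range lay within the BDL range for both. For let-7f-1-3p the sign of the fold change turned with total-count scaling (0.12), and for let-7e-3p without BDL 1 (-0.13) and without sham 4 (-0.02).

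The remaining 3 strands did not pass the filter on low counts. let-7i-3p had 69 counts in all BDL libraries and 76 in all sham libraries, or 7.81 and 7.25 per 1000000 pooled, unscaled counts, with exact 95% Poisson intervals of 6.08 to 9.89 and 5.71 to 9.08. let-7f-2-3p had 13 counts in BDL and 11 in sham, with 0 in 3 libraries of each group. let-7g-3p had 7 counts in BDL and 4 in sham, with 0 in 4 BDL and 5 sham libraries, and no difference was detectable at this depth. The Poisson intervals are for counts pooled over libraries, so they cover counting error only and not the spread between libraries. The reads carry no molecular identifiers, so they need not be separate molecules.

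The 3p names of the family outside the 9 were also rare. let-7a-2-3p had 4 counts in BDL, all in BDL 1, and 0 in sham. let-7c-1-3p had 5 counts in BDL and 16 in sham, and miR-98-3p had 2 in each group. let-7a-5p, let-7c-5p and let-7f-5p are each made by more than 1 hairpin and so are joint denominators for the 3p strands of those hairpins.

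Within each hairpin the 3p strand was set against the 5p strand of the same library, so that scaling between libraries cancels. let-7d was the 1 let-7 hairpin with more 3p than 5p reads in the pooled counts of either group, and it had more in each of the 12 libraries. Its 3p share was 82.0, 88.0 and 97.3% as the lowest, median and highest in BDL, against 81.1, 83.2 and 90.1% in sham, and the groups overlapped. As a ratio, let-7d-3p had 6.2 reads for each let-7d-5p read in pooled BDL counts and 4.92 in pooled sham counts. Both strands are shown in capitals in their hairpin, 5p first, because this duplex is the exception in the family.
let-7d hairpin: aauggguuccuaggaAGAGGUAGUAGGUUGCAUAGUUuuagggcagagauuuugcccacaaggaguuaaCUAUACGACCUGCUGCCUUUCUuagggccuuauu
let-7b hairpin: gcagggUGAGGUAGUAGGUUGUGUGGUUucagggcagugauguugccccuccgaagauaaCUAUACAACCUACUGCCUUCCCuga

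The guides share the seed GAGGUAG. let-7d-5p starts with A, and the 5p strands of let-7a, let-7b, let-7c, let-7e, let-7f, let-7g and let-7i start with U. The 3p strand of let-7d starts with C, like that of let-7b. Whether the first base plays a part in the let-7d ratio was not tested. let-7d ranked 22 of 73 hairpins by mean 3p to 5p ratio, and 35 of those 73 had the higher mean level on the 3p arm, so a dominant 3p arm was common in the table.

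**Figure D2:**
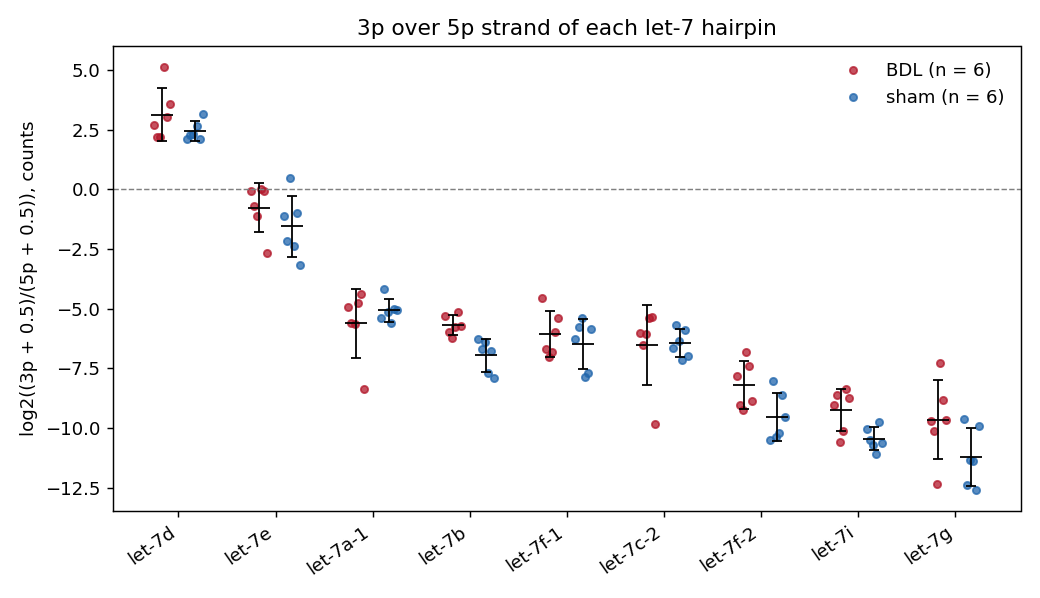
log2 of the 3p count over the 5p count (0.5 added to each) for 9 let-7 hairpins in each library, with BDL left of sham and black bars for mean and SD. let-7d lies above the dashed line of equal counts, let-7e is nearest to it among the rest, and the other hairpins lie far below. Each let-7b BDL library is above each let-7b sham library.

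let-7e came next. Its 3p share was 37.9 ± 15.6% in BDL and 27.7 ± 17.9% in sham (mean ± SD, n = 6 each), with 1 count of each strand in BDL 4. In sham 3 let-7e had 20 reads of the 3p strand and 14 of the 5p strand, the 1 library where its 3p strand was ahead. The difference of log2 ratios, BDL minus sham, was 0.79 ± 0.63 (SE; limma adjusted p = 0.381). For let-7a-1, let-7f-1 and let-7c-2 the differences were -0.54 ± 0.58, 0.40 ± 0.59 and -0.08 ± 0.65 (limma adjusted p = 0.527, 0.671 and 0.934). Without BDL 6, which had no read of the shared strand, let-7a-1 had 0.00662 and let-7c-2 0.58 (limma adjusted p = 0.987 and 0.285). Since the a-1 and c-2 strands cannot be separated, their shared count was also set against let-7a-5p and let-7c-5p together. It was 0.843 ± 0.519% in BDL and 0.853 ± 0.339% in sham (mean ± SD, n = 6 each).

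The 3p strand of let-7b gained on its guide after ligation. It made up 1.3, 1.75 and 2.75% of let-7b reads as the lowest, median and highest BDL libraries, against 0.399, 0.926 and 1.27% in sham, and the groups did not overlap. The mean log2 ratio was -5.68 ± 0.41 in BDL and -6.95 ± 0.68 in sham (mean ± SD, n = 6 each). The difference of 1.27 ± 0.36, or 2.41-fold, was past the threshold (SE; limma adjusted p = 0.00908 over 73 hairpins; exact two-sided permutation p = 0.00216, the smallest the design allows). It held in all 12 fits with 1 library left out, from 1.08 to 1.41 (limma adjusted p at most 0.0273). Within suffix 24 it was 0.93 ± 0.38 and within suffix 26 1.61 ± 0.53, with 3 libraries a group (limma adjusted p = 0.065 and 0.0584).

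Such shifts were frequent. Of the 73 hairpins, 39.7% were called, 21 with a higher and 8 with a lower 3p to 5p ratio in BDL, and in 23.3% the groups did not overlap. Among 33 hairpins outside the 9 names whose 5p arm was the more abundant, 10 were higher and 5 lower. Their median difference was 0.34, as it was over all 73. Of CPM levels, 21.1% of the 341 names did not overlap between groups, and 0 of the 5 tested let-7 3p strands were among them.

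The let-7d ratio did not pass the threshold. The difference was 0.69 ± 0.41 (SE; limma adjusted p = 0.196), with mean log2 ratios of 3.14 ± 1.11 in BDL and 2.45 ± 0.41 in sham (mean ± SD, n = 6 each). BDL 4 had 507 reads of let-7d-3p and 14 of let-7d-5p, a 3p share of 97.3% (exact 95% interval 95.5 to 98.5%). BDL 6 and sham 6, also shallow, had 92.2% and 90.1%, while BDL 2, as shallow, had 82.1%. Without BDL 4 the difference was 0.29 (limma adjusted p = 0.481), and in libraries of at least 1000000 counts it was 0.35 ± 0.25 (limma adjusted p = 0.318).

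**Figure D3:**
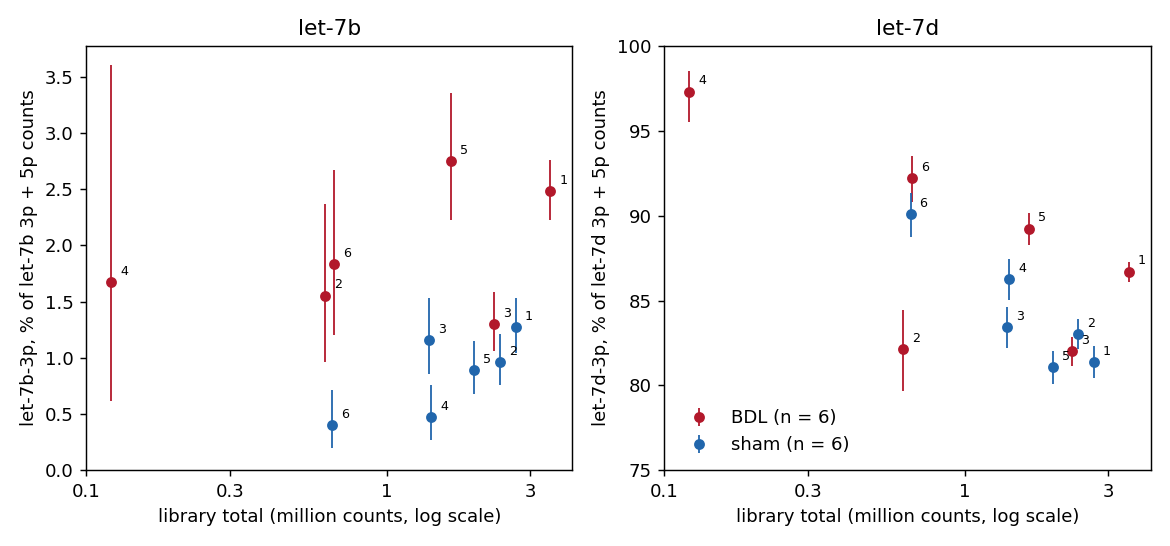
Share of the 3p strand in the reads of let-7b (left) and let-7d (right) against the library total on a log axis, with library numbers and exact 95% binomial intervals; the let-7d axis starts at 75%. For let-7b the BDL libraries lie at 1.3% or more at every depth and the sham libraries at 1.27% or less; for let-7d the 3 highest shares, BDL 4, BDL 6 and sham 6, are in libraries under 1000000 counts.

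The strands of let-7b had fold changes of opposite sign. The 3p strand had 0.87 ± 0.31 and the 5p strand -0.35 ± 0.20 on the log2 scale (edgeR adjusted p = 0.0332 and 0.162). All 8 guides let-7a-5p to let-7i-5p had a negative fold change, and let-7c-5p and let-7i-5p passed the threshold at -1.24 ± 0.25 and -1.06 ± 0.24 (edgeR adjusted p = 8.66e-04 and 0.00247). The 5p strand let-7d-5p had -0.46 ± 0.31 (edgeR adjusted p = 0.244) beside 0.14 for let-7d-3p. let-7i-3p, in a share of its hairpin's reads, was 0.164 ± 0.11% in BDL and 0.0706 ± 0.0281% in sham (mean ± SD, n = 6 each), and was not tested since it did not pass the filter.

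Of all let-7 reads, 3p strands and the 8 guides together, the 3p strands made up 21.9 ± 5.7% in BDL and 12.7 ± 1.85% in sham (mean ± SD, n = 6 each). The lowest BDL library had 15.7% and the highest sham library 15.9%, so the ranges met at their ends. The 3p sum itself overlapped between groups, with 2697 ± 809 CPM in BDL and 2442 ± 292 CPM in sham. A wider list of 11 guide names summed to 8063 to 13684 CPM in BDL and 13937 to 19999 CPM in sham. The share sets let-7d-3p, most of the 3p sum, against the guides of all hairpins. It is not a strand ratio within a hairpin. With let-7d-3p left out of both sums the shares were 0.903 ± 0.342% in BDL and 0.45 ± 0.143% in sham. These overlapped, with 0.561% in the lowest BDL library and 0.599% in the highest sham library.

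**Figure D4:**
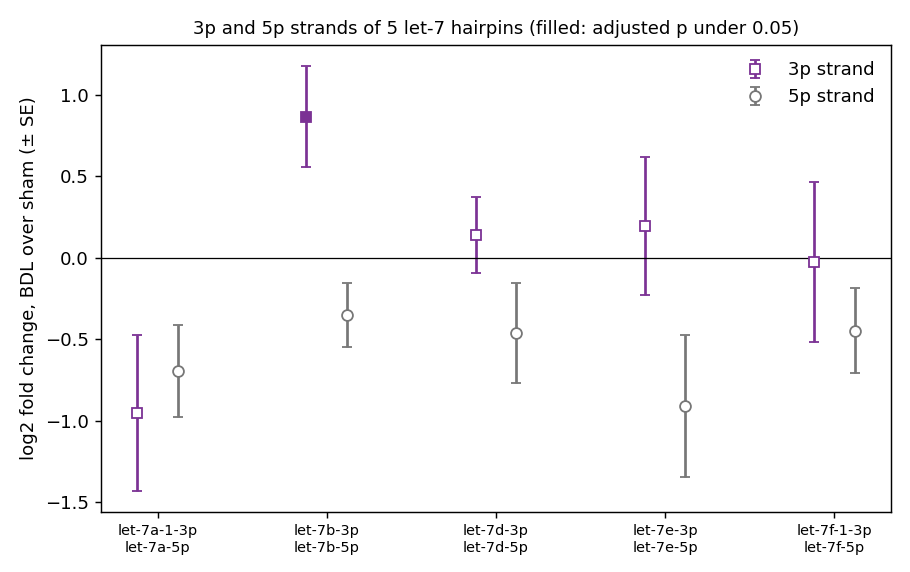
log2 fold change, BDL over sham, with SE, for 5 tested let-7 3p strands (squares) and their 5p partners (circles); filled symbols have an edgeR adjusted p under 0.05. let-7b-3p at 0.87 is the filled symbol, and the 5p strands drawn lie between -0.91 and -0.35. let-7a-1-3p is drawn beside let-7a-5p. let-7c-5p, the partner of the identical let-7c-2-3p, is not drawn and had -1.24 (edgeR adjusted p = 8.66e-04).

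Some neighbours of the let-7 hairpins passed the threshold. Beside let-7e on chromosome 17, miR-99b-3p rose by 2.07 ± 0.30 and miR-125a-3p by 1.42 ± 0.32 on the log2 scale (edgeR adjusted p = 7.53e-05 and 0.00205), while let-7e-3p had 0.20 ± 0.42. The guides miR-99b-5p and miR-125a-5p had 0.33 ± 0.22 and -0.21 ± 0.32 (edgeR adjusted p = 0.246 and 0.632). Beside let-7f-2 on chromosome X, miR-98-5p fell by 1.28 on the log2 scale (SE 0.37; edgeR adjusted p = 0.0118). In the list of 13 names clustered with let-7 hairpins, 10 were tested, 2 rose, 1 fell and the median log2 fold change was 0.03, as over all 341 names, of which 42.8% were called and 24.6% called higher. No difference between that list and the rest was tested. The names given from that list were chosen after their values were seen.

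The names whose log2 CPM over 12 libraries was most like that of let-7d-3p, among 335 candidates, were miR-1843b-3p, miR-3057-5p and miR-151-3p (Pearson r = 0.83, 0.80 and 0.78). With group means removed the values were 0.86, 0.82 and 0.78. The names were picked for the highest r over these same libraries, so these values are no separate support for the likeness. For let-7b-3p the names most alike were miR-143-5p, miR-99b-3p and miR-187-3p (r = 0.83 each), with 0.68, 0.58 and 0.56 after group means were removed. These names rose in BDL by 1.51, 2.07 and 2.28 on the log2 scale (edgeR adjusted p = 0.0381, 7.53e-05 and 1.09e-04). Each r is taken over the same 12 libraries, which differ in depth, and is given as a description. let-7d-3p had r = 0.02 with let-7b-3p, and -0.17 with let-7a-1-3p and -0.49 with let-7f-1-3p, its neighbours on chromosome 13.

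The operation's effect was also compared between the code suffixes 24 and 26, the last 2 digits of the sample codes, whose meaning is not given. All BDL libraries of suffix 26 were shallow. Suffix 24 gave let-7d-3p a log2 fold change of 0.18 ± 0.24 and suffix 26 one of 0.13 ± 0.40, and let-7b-3p had 0.73 ± 0.34 and 1.00 ± 0.49 (edgeR adjusted p = 0.586, 0.803, 0.121 and 0.12). The difference between suffixes, suffix 26 minus suffix 24, was -0.03 ± 0.45 for let-7d-3p, 0.35 ± 0.59 for let-7b-3p and -2.12 ± 0.96 for let-7a-1-3p (edgeR adjusted p = 0.97, 0.774 and 0.22). Of 341 names, 8 passed the threshold for that difference, and no let-7 3p strand was among them.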

How the data were processed

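The authors deposited raw counts, whole numbers for each mature microRNA in each of 12 libraries. Trimming and alignment tools named in the submitters' processing notes are cutadapt and STAR, without versions. Neither genome build nor annotation is given in the sources used here. Another 67 names, of other species, were left out. The 12 libraries have distinct columns. The labels do not say that each is a separate animal, and pairs of libraries share the first digit of their code, so p-values measure the spread between libraries.

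For 1915 names, edgeR 4.0.16 (R 4.3.3) was run on the counts (quasi-likelihood F test, TMM scaling, filterByExpr, 341 names passing, Benjamini-Hochberg adjustment over these, threshold 0.05). SE is the fold change over the square root of F. The 3p to 5p ratios were tested with limma 3.58.1 (trend) on log2 counts with 0.5 added, over 73 hairpins with both arms passing the filter. DESeq2 1.42.0, limma-voom, other filters and scalings, a replicate block, code digit and suffix, thinning, and leaving out each library were alternatives. Both tests were tested on simulated data. Sequences are from RefSeq GRCm38.p6 and host genes from GENCODE M21, which need not be the authors' build. The named strands are the 9 listed names and their relatives, and for likeness the 3 names of highest Pearson r to each of the 2 most abundant strands. The strands and lists were chosen with earlier results of these data known.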

Additional observations from a re-analysis of the deposited data

Results flagged for a closer look

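A single library stood far apart in 5 of 32 groups of 6 values examined. By chance this happens in about 1 in 20 groups when values are independent and normally distributed. That rate does not carry over to these groups, since many values sit at a count of 0 and some flags share the same count. BDL 6 had no read of let-7a-1-3p, a log2 CPM of 0.21, against 3.06 for the next BDL library; its log2 ratios of 3p to 5p counts were -8.36 for let-7a-1 and -9.82 for let-7c-2, which share that count. BDL 4, the shallowest library, had no read of let-7i-3p, a log2 CPM of 0.21, against 2.40 for the next. Sham 1 had 4 reads of let-7g-3p, a log2 CPM of 1.35, where the other sham libraries had 0. All 5 rest on counts of 0 or of a few reads.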

How the results depend on the processing

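The number of names called was 146, and 67 of 129 tested after thinning each library to the shallowest; leaving out 1 library gave 120 to 156. The number of 3p to 5p ratios called was 29, 10 within suffix 26 and 5 of 10 tested after thinning; leaving out 1 library gave 25 to 32. The suffix difference was called for 8 names, and for 21 without a count filter.

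let-7b-3p kept its sign but lost its call with DESeq2 size factors (log2 fold change 0.73), total counts (0.95), a minimum of 10 counts in 6 libraries (0.79), no filter (0.77), suffix 24 alone (0.73), suffix 26 alone (1.00) and identical names once (0.77); leaving out 1 library gave 0.66 to 0.96. It kept its call with the DESeq2 test, limma-voom, the code digit summed or as a random block, the suffix as covariate, and libraries of at least 1000000 counts, the last chosen after seeing the data. The let-7b ratio lost its call within suffix 24 (0.93) and suffix 26 (1.61); leaving out 1 library gave 1.08 to 1.41. Neither could be tested after thinning.

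Signs turned only for values that did not pass the threshold. let-7d-3p ran from -0.0918 to 0.14 with 1 library left out, with -0.03 without sham 3, and let-7e-3p from -0.13 to 0.40. let-7f-1-3p had 0.12 with total counts, 0.17 with the code digit summed, 0.21 in suffix 24 and 0.24 in libraries of at least 1000000 counts, and -0.56 to 0.13 with 1 library left out. let-7f-5p had 0.0744 after thinning. The let-7a-1 ratio had 0.20 in suffix 24, 0.0789 in the deeper libraries and -0.79 to 0.00662 with 1 library left out. The let-7c-2 ratio had 0.43 with 2 added to each count, 0.50 in suffix 24, 0.54 in the deeper libraries and -0.31 to 0.58 with 1 library left out. let-7a-1-3p passed the threshold with the code digit as a random block (-1.16, limma adjusted p = 0.0492), where the estimated correlation was negative (-0.221), and not with the code digit summed (-0.71, edgeR adjusted p = 0.144). The causes were not tested.

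Between libraries of the same number, deviations from the group means had r from -0.09 to 0.31, the highest being 0.31 and 0.30 for numbers 5 and 6. Of the 6 BDL libraries, 2 correlated best with their own number. The labels do not say whether the numbers pair libraries, and so few values cannot decide it. With a replicate block 133 names were called, let-7b-3p had 0.86 (edgeR adjusted p = 0.0611) and the let-7b ratio 1.27 (limma adjusted p = 0.0124).

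Depth limits the low strands: 3 counts are 23.98 CPM in BDL 4, above the mean of every strand but let-7d-3p and let-7b-3p in both groups.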
